A study of Mus musculus with 6 samples.

Results

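Rpl13a, the gene of a protein of the large ribosomal subunit, was read by 20 replicate spots of 1 probe on each of 6 mouse arrays, 3 of resting microglia and 3 of microglia stimulated with interleukin-4 (IL-4). The gene was taken as every spot that carries the RefSeq accession NM_009438.4, 1 of 59709 probes averaged here. It was chosen with its measured levels in both conditions known, so the difference between them is described and not tested. After quantile normalization, in which every array is given the same distribution of signals, the 3 IL-4 arrays lay above the 3 resting arrays, and the means differed 1.69-fold. Before normalization, 1 of the 3 IL-4 arrays lay within the range of the resting arrays.

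Rpl13a protein sits on the outside of the large subunit, and its messenger RNA belongs to the group of ribosomal protein transcripts that begin with a run of pyrimidines and whose translation follows nutrient and growth signals. The gene also carries small nucleolar RNAs (snoRNAs), guides for the chemical modification of ribosomal RNA, in its introns. In myeloid cells exposed to interferon-gamma, Rpl13a protein is released from the ribosome and joins the GAIT complex, which holds back the translation of inflammatory transcripts. Rpl13a is also widely used as a reference gene in quantitative PCR. An array reads the amount of transcript, and neither ribosomes nor translation were measured. In the RefSeq annotation of GRCm38.p6, the span of Rpl13a holds 4 snoRNA genes (Snord32a, Snord33, Snord34 and Snord35a) and 1 microRNA gene, Mir5121, and 1 pseudogene bears the name Rpl13a-ps1. None of these was named on the probes used here, and binding of the pseudogene's RNA to the Rpl13a probe was not tested.

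The cells were primary microglia, brain-resident macrophages, from C57BL/6 mice at postnatal day 0. They were shaken for 6 h from mixed cerebral glial cultures grown in serum for 10 to 14 days. The cells were thus neonatal, and shaking can carry over other glia. The methods do not give the medium of the collected microglia during the stimulation. The IL-4 group received 10 ng/ml IL-4, a cytokine that moves macrophages to the M2 state, and the resting group was taken after 24 h with no stimulation, the same 24 h as the stimulated cells. The labels do not say whether the 3 arrays of a condition came from separate cultures, so spread and p-values refer to these arrays and may be technical. In bulk RNA, fewer cells that express a gene and less of its RNA per cell cannot be told apart. No probe of the microglia, astrocyte, oligodendrocyte, neuron or fibroblast marker lists was named, so the labelled cell type was not checked against markers.

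The arrays differed in overall brightness, which touches every value below. The 75th percentile of log2 processed signal was 7.25, 6.23 and 6.79 on resting arrays 1, 2 and 3 and 6.54, 8.08 and 6.87 on IL-4 arrays 1, 2 and 3. IL-4 array 2 stood apart, with a median negative-probe signal of 71.2 against 2.67 to 7.37 on the other arrays and with 80.7% of probes above background against 38.2 to 61.5%. IL-4 array 2 shared its scan with all 3 resting arrays, whereas IL-4 arrays 1 and 3 came from separate scans, so condition and scan overlap in part.

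All 20 Rpl13a spots were well above background on every array, and 0 were saturated. Of the 20 spots, 20, 20 and 19 were free of outlier flags on resting arrays 1, 2 and 3, and the IL-4 arrays kept 20, 18 and 20. The mean log2 processed signal of Rpl13a was 12.08, 11.52 and 11.98 on resting arrays 1, 2 and 3, which are geometric mean signals of 4330, 2935 and 4034. On IL-4 arrays 1, 2 and 3 it was 12.02, 13.38 and 12.98, or signals of 4157, 10670 and 8078. On this scale IL-4 arrays 2 and 3 were above every resting array, while IL-4 array 1 was below resting array 1. The means differed by 0.935 on the log2 scale (1.91-fold), beside SDs over arrays of 0.299 for resting and 0.699 for IL-4 (n = 3 each). The local background around the spots had a median of 19.5 to 25.5 on all 6 arrays, far below these signals.

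**Figure D1:**
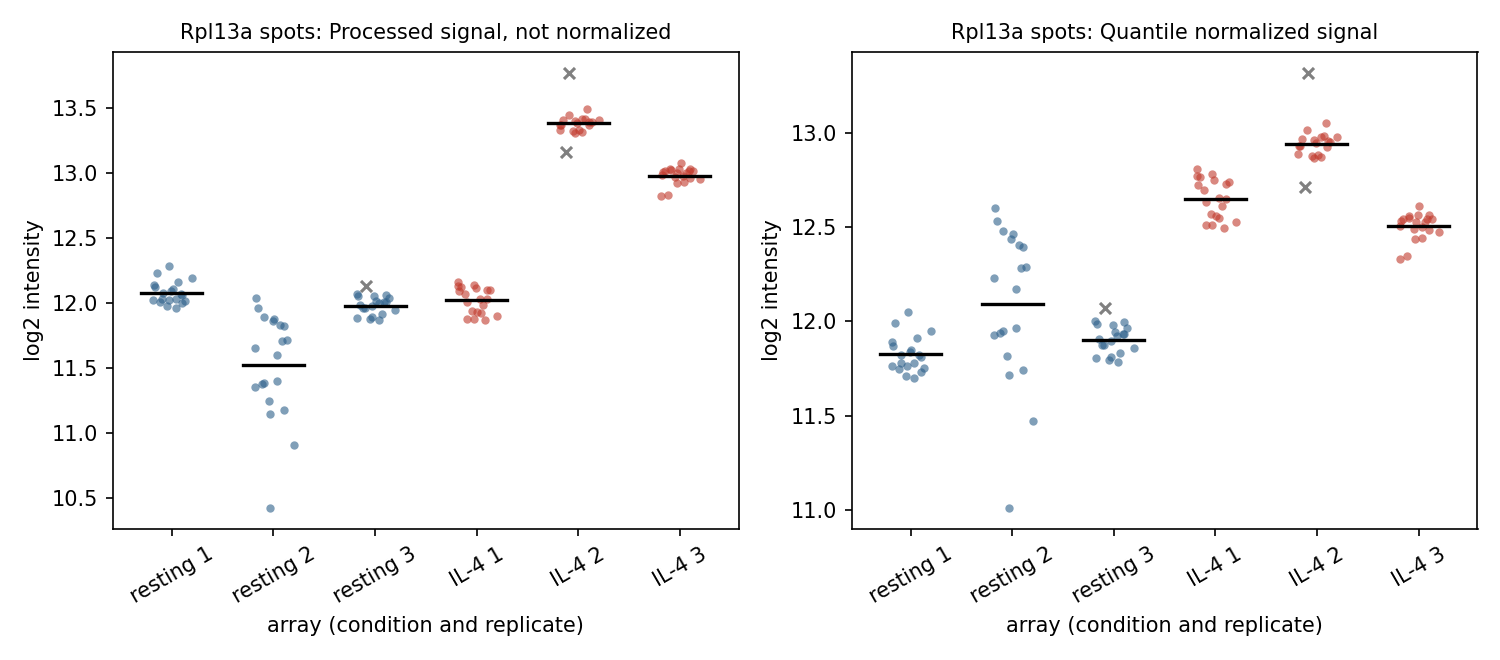
Each point is 1 of the 20 Rpl13a spots of an array, as log2 intensity, with the array's mean over unflagged spots as a black bar and flagged spots as grey crosses. The left panel shows processed signal, where IL-4 array 1 (mean 12.02) lies among the resting arrays, and the right panel shows quantile normalized signal, where the 3 IL-4 means (12.51 to 12.94) lie above the 3 resting means (11.83 to 12.09) and the spots of resting array 2 are the most scattered.

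After quantile normalization, Rpl13a had log2 values of 11.83, 12.09 and 11.90 on resting arrays 1, 2 and 3. The values on IL-4 arrays 1, 2 and 3 were 12.65, 12.94 and 12.51. The groups did not overlap, and the lowest IL-4 array stood 0.413 above the highest resting array. In order of level the arrays ran from resting 1 through resting 3 and resting 2 to IL-4 3, IL-4 1 and IL-4 2. Within a condition, neighbours in this order differed by 0.0742 to 0.291. The gene was chosen with its levels known, so the gap of 0.413 between the conditions is a description and no test. The mean was 11.94 ± 0.137 (SD, n = 3) in resting and 12.70 ± 0.223 (SD, n = 3) in IL-4-stimulated microglia, a difference of 0.761 with an SE of 0.151.

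This difference was read against the whole array. Of 32992 tested probes, 3593 (10.9%) had groups that did not overlap, counted in both directions. The share with all IL-4 arrays above all resting arrays is not given separately. In the upward direction only, 2220 (6.73%) had a difference at least as high as that of Rpl13a. The median probe had a difference of -0.141 after quantile normalization, so Rpl13a lay 0.902 above the median probe. At 1.69-fold Rpl13a was under the 2-fold limit used for differential expression, which 1275 probes (3.86%) passed in the upward direction. With that limit and a limma P, unadjusted, no higher than 0.05, 1622 probes (4.92%) were called, 366 higher and 1256 lower. None passed after Benjamini-Hochberg adjustment (smallest adjusted p = 0.891 from limma), nor by the methods' t-test. Whatever their fold, 1723 (5.22%) had an unadjusted limma P of at most 0.05. In data simulated with no change, 1380 of 32811 probes passed the same 2 limits.

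How far the IL-4 arrays stood from the resting arrays depended on the scale. Relative to the 75th percentile of its own array, the log2 value of Rpl13a was 4.83, 5.28 and 5.19 in resting and 5.48, 5.30 and 6.11 in IL-4-stimulated microglia. The groups still did not overlap, but IL-4 array 2 and resting array 2 were only 0.0203 apart, and the difference of the means was 0.528 (1.44-fold). On this scale 15.9% of tested probes had a difference at least as high, and Rpl13a lay 0.610 above the median probe, whose own difference was -0.0822. Without normalization the median probe was 0.324 higher in IL-4, Rpl13a lay 0.611 above it, and 15.9% of probes again had a difference at least as high.

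**Figure D2:**
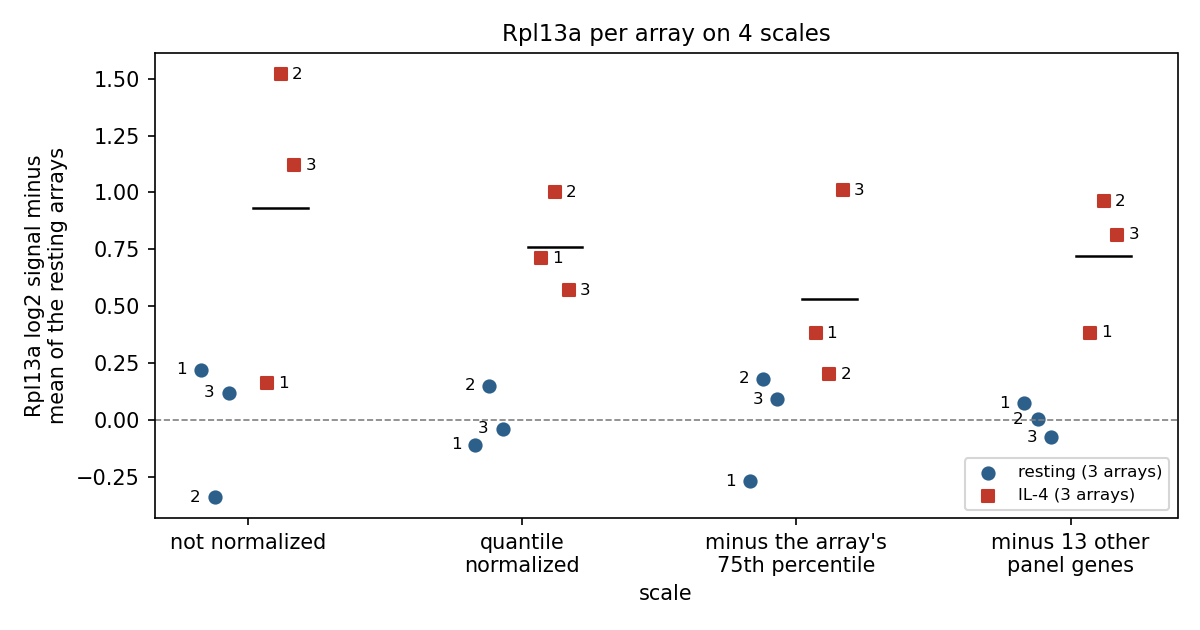
Rpl13a in each array as log2 signal minus the mean of the 3 resting arrays, on 4 scales, with the replicate number beside each point and the IL-4 mean as a black bar. The IL-4 arrays (squares) are clear of the resting arrays (circles) after quantile normalization and relative to the panel genes, IL-4 array 2 is next to resting array 2 relative to the 75th percentile, and IL-4 array 1 lies among the resting arrays without normalization.

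The array that moved most between scales was IL-4 array 2, the brightest one. It had the highest Rpl13a value of the 6 after quantile normalization and the lowest of the IL-4 values relative to the 75th percentile. Leaving it out and normalizing the other 5 arrays again gave a difference of 0.634. Taken alone against the 3 resting arrays of its own scan, IL-4 array 2 had a normalized log2 value of 12.99 where those had 11.87, 12.13 and 11.94, a difference of 1.01. The geometric mean Rpl13a signal on IL-4 array 2 was 10670, beside a median negative-probe signal of 71.2. With median spot signal minus local background in place of processed signal, the difference over the 6 arrays was 0.758. An effect of the background of IL-4 array 2 on its Rpl13a value by way of the normalization was not tested.

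The 20 spots of an array share 1 hybridization, so they describe how well an array was read and are not replicates of a condition. Of the 18 spots free of flags on all 6 arrays, 18 had a positive difference after normalization, from 0.577 to 1.11 with a median of 0.752. In 17 of these the 3 IL-4 arrays were above the 3 resting arrays, and 1 spot reached a 2-fold difference. That spot (1.11) had the lowest normalized value of resting array 2, 11.01 against 12.05 and 11.90 on resting arrays 1 and 3. The spot whose groups were not apart (0.577) had the highest value of resting array 2, 12.60. On most arrays the spots were tight, with an SD over spots of 0.0871 on resting array 1, 0.0657 on resting array 3, and 0.1, 0.0477 and 0.0640 on IL-4 arrays 1, 2 and 3 in log2 processed signal. The exception was resting array 2, with an SD of 0.405 and spots from a signal of 1375 to 4218, a 3.07-fold range against 1.13-fold to 1.25-fold on the other 5 arrays. Even so, the standard error of an array's mean over its spots was 0.0112 to 0.0905 in log2 processed signal. The SD between arrays on this scale was larger, 0.299 for resting and 0.699 for IL-4. These standard errors take the spots of an array as independent, although nearby spots shared deviations on some arrays, as described below.

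Because the gene was chosen on its mean, the spread of its spots was a measure the choice did not use. The SD over spots in normalized log2 signal averaged 0.191 ± 0.187 (SD, n = 3) on the resting arrays and 0.0756 ± 0.0271 (SD, n = 3) on the IL-4 arrays. The difference of -0.115 gave p = 0.4 in an exact two-sided permutation test over arrays, where the smallest p that 3 against 3 arrays allow is 0.1. Resting array 2 carried the difference, which was -0.00728 without it and -0.103 to -0.175 without any other array.

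**Figure D3:**
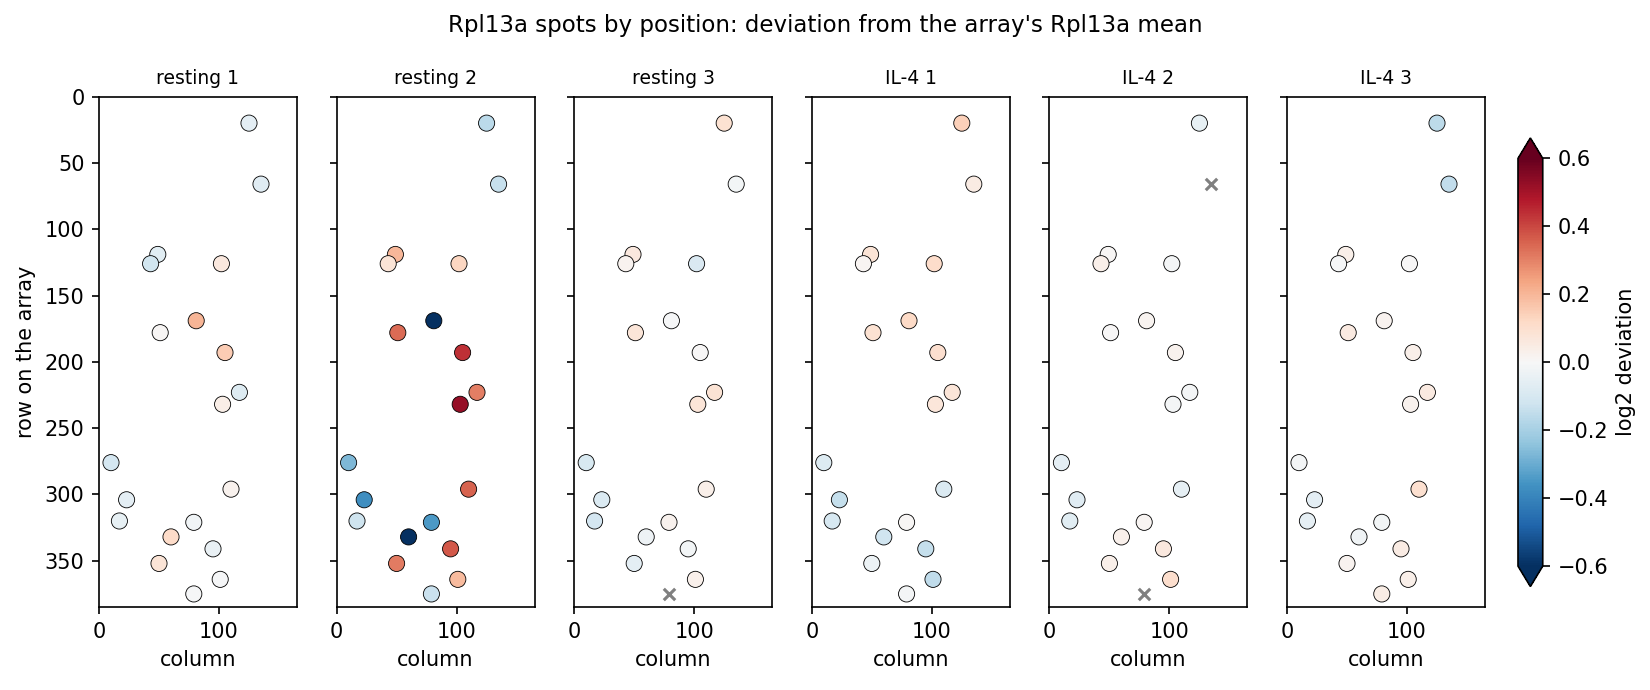
Each circle is an Rpl13a spot at its row and column on the array, coloured by its log2 processed signal minus the array's Rpl13a mean (red higher, blue lower), with crosses for flagged spots. Resting array 2 has the deepest colours in both directions, from 10.43 to 12.04 around a mean of 11.52, while on IL-4 array 1 the spots go from red in low rows to blue in high rows.

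The scatter on resting array 2 was shared by other genes. The array design repeats 15 genes in 20 spots each, most of them common reference genes, and 13 of the other 14 were bright enough to be tested. In 11 of these 13 the SD over spots was highest on resting array 2, where the median SD over the other genes was 0.272, against 0.0710 to 0.108 on the other arrays. Within resting array 2, the deviation of an Rpl13a spot correlated with the mean deviation of its 5 nearest panel spots at r = 0.57 over 20 spots that share this hybridization. Subtracting the deviation of nearby spots left an SD over Rpl13a spots of 0.338. Its lowest spot, at 10.43, had neighbours with a mean deviation of -0.142, whereas the next lowest, at 10.91, lay among spots with a mean deviation of -0.488.

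Smaller patterns by position were seen on other arrays. On IL-4 array 1 the Rpl13a signal was lower at higher row numbers (r = -0.78 over 20 spots). The correlation with nearby panel spots was 0.79 on resting array 1, 0.49 on resting array 3 and 0.53 on IL-4 array 2, and was near 0 on IL-4 arrays 1 and 3 (-0.043 and -0.026). A spot that was high on 1 array was not regularly high on the next: over the 15 pairs of arrays, the correlation of spot deviations ran from -0.21 to 0.48 with a median of 0.22.

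The other genes with 20 spots gave a comparison with equal replication. None of the 13 tested genes passed the limits (4.92% of all tested probes did), 4 had a positive and 9 a negative difference, and their median was -0.0455, beside -0.141 over all tested probes. The smallest p among them in limma was 0.118 before and 0.891 after adjustment. The signs depended on the scale, since 11 of the 13 were positive without normalization and 2 relative to the 75th percentile.

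Tfrc, the transferrin receptor that takes up iron, was the only one of the 13 with a higher difference than Rpl13a. It was also the only one whose groups did not overlap, 1 of 13 beside 10.9% of all tested probes, both directions counted. The normalized log2 values of Tfrc were 12.75, 13.38 and 13.38 in resting and 13.39, 14.91 and 13.86 in IL-4-stimulated microglia. Its lowest IL-4 value was thus level with its highest resting value. The difference of 0.882 (SE 0.498, limma adjusted p = 0.891) rested in large part on IL-4 array 2 and was 0.452 without it, with the normalization kept, where that of Rpl13a was 0.639.

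The differences of the other 12 genes ran from -0.633 to 0.217 after quantile normalization. Gapdh, a glycolytic enzyme whose protein is also a member of the GAIT complex, had a difference of -0.00985 (limma adjusted p = 0.997), with resting values of 17.82, 17.78 and 17.88 and IL-4 values of 17.89, 17.81 and 17.75. Actb, the cytoplasmic actin, differed by 0.0256, and Ppia, a prolyl isomerase, by -0.0978. Other differences were 0.217 for Gusb, a lysosomal glucuronidase, 0.0160 for the chaperone Hsp90ab1, -0.0133 for the RNA-binding protein Nono and -0.0455 for the tubulin Tuba1b. B2m, the light chain of class I histocompatibility molecules, differed by -0.109 and the TATA-binding protein Tbp by -0.162. The lowest differences were those of G6pd2 (-0.314) and Hprt (-0.430), enzymes of the pentose phosphate pathway and of purine salvage, and of glycerol kinase Gk (-0.633), whose IL-4 arrays ran from 4.52 to 6.70. The difference of Gk was -0.00792 without IL-4 array 2, which had its lowest value. Relative to the 75th percentile, Gapdh differed by -0.296, Ppia by -0.222, B2m by -0.339 and Actb by -0.0847.

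**Figure D4:**
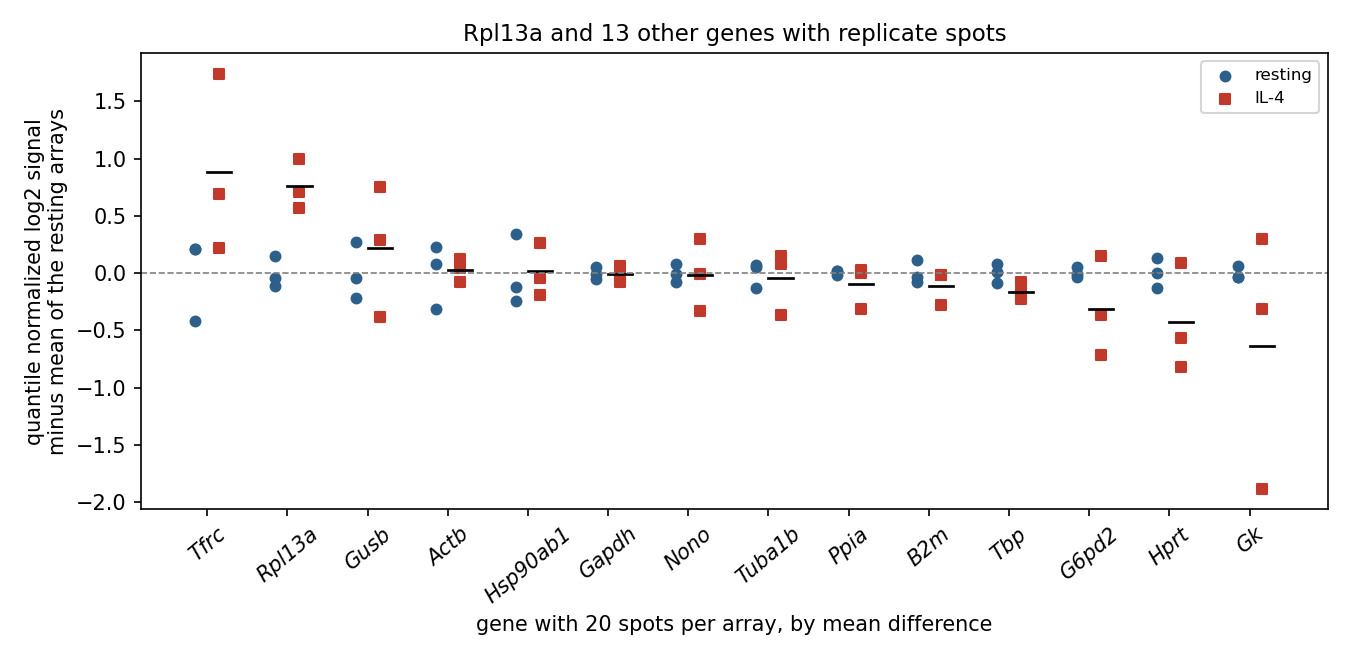
For Rpl13a and the 13 other tested genes with 20 spots, each array's quantile normalized log2 signal is shown minus the gene's resting mean (circles resting, squares IL-4), with the mean difference as a black bar, in order of that difference. Tfrc (0.882) and Rpl13a (0.761) are at the left with IL-4 arrays above the resting arrays, and the other 12 genes overlap between the conditions.

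With the mean of these 13 genes subtracted from each array, Rpl13a stood at -1.74, -1.81 and -1.89 on resting arrays 1, 2 and 3 and at -1.43, -0.852 and -1.0 on IL-4 arrays 1, 2 and 3. These are log2 ratios between probes and give no order of transcript levels. The resting arrays were closer together here than on the 3 scales above, and the difference was 0.720 with a gap of 0.312 between the groups. With the dim gene of the panel, Ldhal6b, included in the mean, the difference was 0.662 and the gap 0.282. IL-4 array 1 was the IL-4 array nearest to the resting arrays, as it was without normalization.

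Rpl13a was the only ribosomal protein gene and the only snoRNA host gene of the fixed lists that could be named, so nothing can be said of the ribosomal proteins as a group. Of 123 probes with a RefSeq accession, 116 had a name, and no translation factor and no gene of the IL-4 response list was among them. Apart from Rpl13a, 11 genes of the list of quantitative PCR references were tested, of which 0 passed the limits, 4 had a positive difference and the median was -0.0455. Of the 74 other RefSeq probes tested, 3 (4.05%) passed the limits, beside 4.92% of all tested probes, and all 3 were lower in IL-4. They were an unnamed probe, the predicted gene Gm3286 and Spry3, a member of the Sprouty family of inhibitors of growth factor signalling, each with a limma adjusted p of 0.891. Spry3 was well above background on 3 resting and 0 IL-4 arrays, so it entered the tests through the resting arrays alone. A probe let in this way is bound to lean lower in IL-4, so its call is no support for a fall. Its resting mean was at least 2.70-fold above the lowest signal counted as above background on each IL-4 array, a bound and not a measured fold. The unnamed probe (-1.42) was well above background on 2 resting arrays and 1 IL-4 array, and Gm3286 (-1.23) on 3 resting and 2 IL-4 arrays. With all 6 arrays required above background, 0 RefSeq probes passed the limits.

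The pattern of Rpl13a over the 6 arrays was set beside that of 68 other named genes, by Pearson's r of the normalized log2 values. These correlations are descriptions over 6 arrays that share their array-wide differences. Rpl13a was chosen with its levels in both conditions known, so r in part repeats that contrast in the other gene. A like pattern is therefore no separate support. The median r was -0.248, and 0 genes had an r above 0.9. The most alike were B020031M17Rik (r = 0.838, above background on 4 arrays only), Tfrc (0.831), Tsnax, which encodes the translin partner translin-associated factor X (0.752), Brox, a gene of the BRO1-domain family (0.633), and the histone gene H2ac19 (0.519). Tsnax nearly held its level, from 12.06 to 12.12 on the resting arrays and from 12.06 to 12.37 on the IL-4 arrays, so a like pattern did not mean a like size. Brox lay at 12.71, 12.72 and 13.25 in resting and 13.56, 13.23 and 13.28 in IL-4, and these groups overlapped.

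At the other end were Tbp (r = -0.880) and Tagap, a GTPase-activating protein of activated lymphocytes (-0.878). Tbp nearly held its level, from 8.23 to 8.39 on the resting arrays and from 8.09 to 8.24 on the IL-4 arrays. Its groups overlapped, with a difference of -0.162 and a limma adjusted p of 0.946. Tagap had 10.28, 9.75 and 10.35 in resting and 8.77, 9.04 and 9.82 in IL-4-stimulated microglia, with groups that overlapped, a difference of -0.914 and a limma adjusted p of 0.891. Of the 13 other panel genes, 5 had a positive r with Rpl13a. Without IL-4 array 2, r was 0.740 for B020031M17Rik, 0.663 for Tfrc, 0.582 for Tsnax, 0.736 for Brox and 0.724 for H2ac19, and -0.896 for Tbp and -0.860 for Tagap. The order of likeness also depended on the scale, since relative to the 75th percentile r was 0.0104 for B020031M17Rik and 0.827 for H2ac19. Without resting array 1, r was 0.244 for H2ac19.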

How the data were processed

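Total RNA was labelled with Cy3 by random priming and hybridized in 1 colour to the Arraystar Mouse LncRNA Array V2.0. The scans had been quantified by the authors with Feature Extraction 10.7.3.1 (Agilent), and the deposited processed signal is an intensity from which background was taken away on each array, with arrays not yet made comparable. A deposited table of 14055 quantile normalized log2 values per array held 0 rows for this gene, so it could not be used to check Rpl13a.

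Control and negative probes were left out, the log2 signal of 59994 spots was quantile normalized, and unflagged spots of a probe were averaged. Probes entered the tests with a signal well above background on 3 or more arrays and unflagged values on 2 or more per group. limma (version 3.58.1, R 4.3.3) was fitted with condition as the only term, and the fit was tested on simulated data. With no probe changed, 1380 of 32811 simulated probes passed the limits given next, and 0 passed after adjustment. With 200 probes changed by 2 on the log2 scale, 76% of them were called, with 1387 false calls. The study's limits were a fold change of 2 and an unadjusted P of 0.05. Names came from RefSeq (GRCm38.p6, names only), and plots from matplotlib 3.10.9. The genes named were Rpl13a, the 5 most and 2 least alike in pattern, the list members with at least 10 spots and, chosen after their values were seen, the RefSeq probes past the limits. The gene and all lists were chosen with earlier results of these data known. Alternatives covered normalization, background, flags, dim probes, blocks and left-out arrays. Groups and replicate numbers came from the labels. The number of arrays limits the precision.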

Additional observations from a re-analysis of the deposited data

Results flagged for a closer look

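The SD over the Rpl13a spots of an array was set apart on 1 of the 6 arrays, which were treated as 1 group. Resting array 2 (SD 0.405) lay so far from the next array (0.1) that the gap was 0.854 of the whole range, above the critical value of Dixon's test for 6 samples. The median SD over the spots of the other panel genes stood apart on the same array in the same way (0.272, gap 0.816 of the range). Dixon's test sets apart about 5% of groups of independent values from 1 normal distribution. SDs from arrays of both conditions need not meet this, and both flags fall on the same array, so the rate is only a rough guide. The cause was not tested.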

How the results depend on the processing

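Rpl13a was chosen with its difference known, and every setting draws on the same 6 arrays, so a common sign is no separate support. The difference was positive under all 19 settings that could move it, from 0.528 to 1.01. It was 0.528 with the 75th percentile, 1.00 with the scan as a block, which leaves IL-4 array 2 against the resting arrays, and 1.01 within that scan, and it ran from 0.634 (without IL-4 array 2) to 0.861 (without IL-4 array 3) as each array was left out. The labels do not say whether replicate numbers pair the arrays. The correlations of deviations (-0.22, 0.14 and -0.089), each from 1 pair of arrays, cannot decide it. The replicate block, which cannot move a difference of means in this balanced design (0.761), took the calls from 1622 to 1603 probes, 1227 of them shared. Probes past the limits numbered 373 without normalization, 267 with normexp, 8869 with the scan as a block, 478 with all 6 arrays above background, 3108 with no filter and 829 by the methods' t-test, and from 673 (without resting array 3) to 3773 (without IL-4 array 1) with an array left out. The share of these calls that was higher in IL-4 was 22.6%, 41.4% with the 75th percentile and 90.1% without normalization. After adjustment 0 probes passed in any of these settings. RefSeq probes past the limits numbered 1 with the 75th percentile, without normalization, with the replicate block, by the methods' t-test and with an intensity trend, 0 with normexp and with the stricter filter, 6 with no filter, 15 with the scan as a block and 0 to 10 with an array left out. Probes whose groups did not overlap, in either direction, made up 3.11% without normalization. They made up 17.2 to 31.7% with an array left out, where fewer arrays have to be apart. Of the 5 genes most like Rpl13a, 3 were again among the 5 with the 75th percentile, with Spearman's rho and relative to the panel genes, 2 without normalization, and 3 to 4 with an array left out. The causes of these shifts were not tested. The deposited log2 table and probe-by-probe values (the gene has 1 probe) gave no alternative, and normexp used the median spot signal in place of the mean. The spread of the Rpl13a spots differed by -0.00728 (without resting array 2) to -0.175 (without resting array 3) as each array was left out. The scaling to 13 bright panel genes, the likeness relative to the panel genes, the adjustment for nearby spots, the within-scan value, leaving out both second arrays (0.710) and the left-out arrays for the spread of spots were chosen after seeing the data. Dim probes, unlike Rpl13a, are limited by signal over background.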
